A study of Homo sapiens with 4 samples.

Results

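The interferon-induced, OAS, MX, GBP, IRF and STAT genes were read on 4 two-colour Agilent 44K arrays of HCT116 cells, a human colon cancer cell line, carrying shRNA against the long non-coding RNA N-BLR. The members were all probes, control spots excluded, whose gene name on the array began with IFI (followed by a digit or a T), OAS, GBP, IRF or STAT (each of the last 3 followed by a digit) or was MX1, MX2, G1P2 or G1P3. This gave 68 of 41000 probes, on 95 spots, for 45 of the 30982 gene names of the array. The labels put total RNA of a clone carrying N-BLR shRNA #3-1 or #4-7 in the Cy5 channel and RNA of HCT116 cells with an empty vector in the Cy3 channel, with 2 arrays per clone and no dye swap. All channels thus came from HCT116 cells that carried a vector. Each shRNA was represented by 1 clone, and the empty vector is a single control sample, whose own spread is not in any test. The labels call the arrays biological replicates, whereas the methods say that the arrays were run in duplicate, so the p-values measure the spread between arrays, which may be technical. No probe on the array is named N-BLR, so the level of the targeted RNA was not read here. The labels speak of lentiviral transduction and the methods of transfection. The comparison addresses whether an interferon response accompanied the shRNA.

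Short double-stranded RNA can be read by the cell as a sign of infection. The cytoplasmic sensors RIG-I (RIGI) and MDA5 (IFIH1) and the endosomal receptor TLR3 signal through IRF3 and IRF7, transcription factors that switch on type I interferon genes. Secreted interferon then acts through its receptor and Janus kinases on STAT proteins, which join IRF9 and bind the interferon-stimulated response element in promoters of OAS, IFIT, MX and ISG15 genes. Interferon gamma acts through STAT proteins on the gamma-activated site, and its targets include the guanylate-binding proteins (GBP). The OAS enzymes make a second messenger that leads to the cutting of RNA. IFIT proteins bind viral RNA, and MX1 is a GTPase that blocks viruses.

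The response element was looked up in the members' promoters because it is the sequence through which this pathway acts, and 5 of the promoters are shown here for genes whose values follow. RefSeq promoter windows of 300 bases (250 before to 50 after the start, GRCh38.p14) matched 32 of the 45 member genes. The core searched was GAAANNGAAA, on either strand. It was in 14 of the 32 member promoters (43.8%) and in 996 of all 27305 promoters (3.65%). The gamma-activated site TTCNNNGAA was in 7 of the 32 (21.9%) and in 7.88% of all promoters, and the 2 motifs overlapped in 2 member promoters. The 14 genes with a core were GBP1, GBP3, GBP4, IFI27, IFI44, IFI44L, IFI6, IFIT1, IFIT3, IFIT5, IFITM1, IFITM3, MX1 and OAS3. None of the 6 STAT promoters in the table held a core. A match is a description of letters and not a site shown to be used. Each window below is written 5′ to 3′ on the gene's strand and lies before the start, with 1 core in capitals (on the opposite strand it reads as TTTCNNTTTC). The 300-base windows hold 2 cores for IFIT1, IFIT3, OAS3 and ISG15 and 3 for IFI6. In the stretches shown for IFIT1 and ISG15 a second core is left in lower case, and in ISG15 it overlaps the one in capitals.
IFIT1, chr10:89392500-89392549, plus strand: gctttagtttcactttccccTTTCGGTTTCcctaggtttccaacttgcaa
IFIT3, chr10:89327855-89327904, plus strand: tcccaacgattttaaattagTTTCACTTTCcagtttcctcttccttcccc
IFI6, chr1:27672256-27672305, minus strand: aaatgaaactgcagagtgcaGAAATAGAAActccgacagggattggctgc
OAS3, chr12:112938442-112938473, plus strand: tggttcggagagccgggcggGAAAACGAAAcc
ISG15, chr1:1013370-1013419, plus strand: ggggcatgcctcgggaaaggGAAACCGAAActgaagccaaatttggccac

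Values below are log2 ratios of Cy5 (given in the labels as the clone) to Cy3 (empty vector), so a negative value is a lower signal in the labelled clone. The E-cadherin probe (CDH1) stood at -2.60 in clone #3-1 and -1.34 in clone #4-7, and a vimentin probe (VIM, A_23_P161190) at 4.45 and 2.39. The study describes the opposite direction for these genes in these clones, so the labelled direction opposes the study's, and with the dyes turned every sign below would turn. A probe was called at an unadjusted p under 0.001, the threshold of the study's methods, in limma. The largest Benjamini-Hochberg adjusted p among the called probes was 0.0031 in clone #3-1, 0.0032 in clone #4-7 and 0.0044 for the difference between the clones. A second count asked for a log2 ratio of at least 0.58 as well, about 1.5-fold.

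Between 68.5% and 72.6% of the probe spots were well above background, per array and channel. All 4 arrays lay on 1 slide and were scanned at 1 time. Of 13 probes of colon epithelium markers, 6 were lower in Cy5 in each clone (46.2%), none was higher in clone #3-1 in limma and 1 was in clone #4-7. Of all probes, 16.4% were lower in clone #3-1 and 15% in clone #4-7. EPCAM stood at -1.04 and -0.44 in clones #3-1 and #4-7, the brighter KRT8 probe at -0.69 and -0.91, and KRT19 at -0.80 and 0.36. The 4 probes of KRT18 ranged from -0.29 to 0.01 and from -0.46 to -0.10. LGALS4 was measured, at -0.01 and 0.02, and CDH17, CEACAM5 and VIL1 were not well above background. EPCAM and KRT8 were thus lower in both clones alongside OASL, IFIT1 and ISG15 below, whereas KRT19 went both ways and LGALS4 stayed near 0. The part of these markers in those values was not tested. Of the leukocyte markers, the probes of PTPRC, MS4A1, LYZ and NKG7 were not well above background. ITGAM stood at 0.21 and 0.47 in clones #3-1 and #4-7, CD14 at 0.08 and 0.01, and the brighter CD3E probe at 0.09 and -0.02. Of 12 fibroblast and endothelial probes, 9 were not well above background on any array. COL1A1 was measured, at -0.59 and -1.13, as was VWF by the probe A_23_P105562, at -0.35 and -0.44.

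The members as a whole did not stand higher in the labelled clones. In clone #3-1, 5 of 68 member probes were higher in Cy5 and 16 lower, where 16.3% and 16.4% of all probes were called higher and lower, so the members' shares were 7.35% and 23.5%. In clone #4-7, 8 were higher and 9 lower (11.8% and 13.2%), where 16.1% and 15% of all probes were called. With the 1.5-fold rule added, 2 were higher and 4 lower in clone #3-1, against 3.88% and 4.54% of all probes. In clone #4-7 none was higher in limma and 4 were lower, against 3.3% and 4.22%, and at an unadjusted p under 0.05 with that ratio the number higher was 0 as well. The members' median ratio was -0.06 in clone #3-1 and 0.00 in clone #4-7, and that of all probes was 0.01 in both. The members ranged from -1.45 to 0.59 in clone #3-1 and from -0.996 to 0.50 in clone #4-7. OASL in clone #3-1 was the one member value of at least 2-fold. In RNA of whole cultures, fewer cells with a transcript and less of it per cell cannot be told apart.

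Many of these genes gave little signal in any channel. Of the 68 probes, 43 were well above background in both channels on all 4 arrays, 18 were not well above background on any, and 7 were in between. No member probe was saturated. The 11 genes with no probe well above background were OAS1, OAS2, IFI16, IFI44L, GBP1, GBP2, GBP5, GBP7, IRF4, IRF8 and STAT5A. For these the arrays give no ratio in either direction. Over the 43 measured probes, 5 were higher and 15 lower in clone #3-1, 11.6% and 34.9%. Of the 26882 probes of the array measured in this way, 24.1% were higher and 23.8% lower in clone #3-1. In clone #4-7, 8 of the 43 were higher and 9 lower, 18.6% and 20.9%, beside 23.6% and 21.9% of the measured probes of the array.

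**Figure D1:**
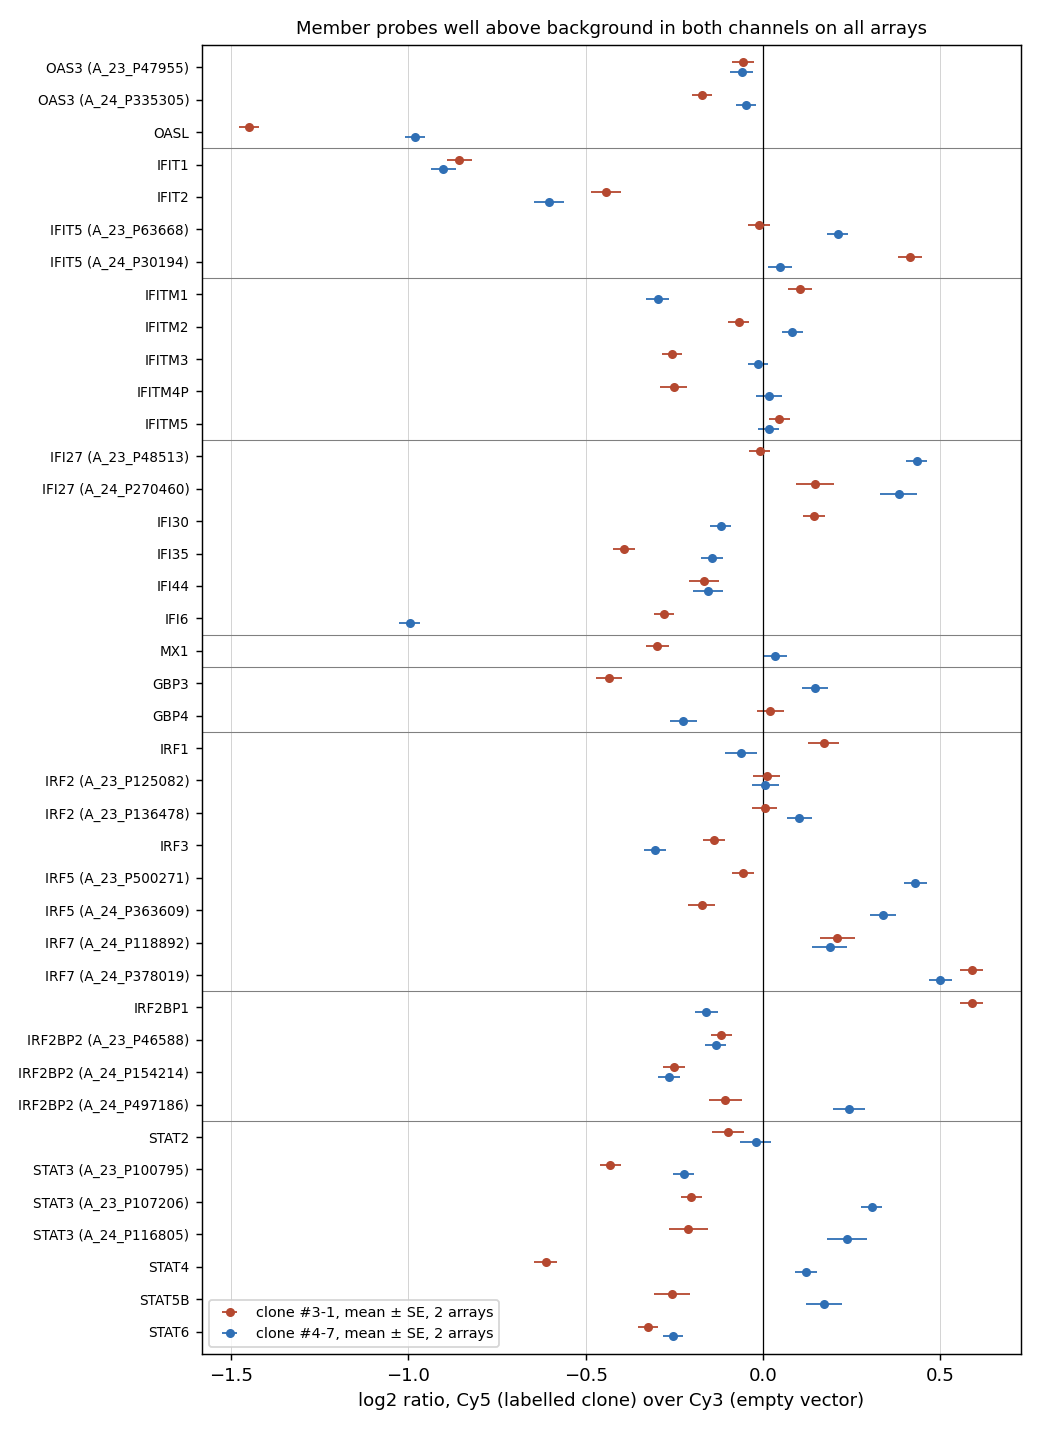
Log2 ratio of Cy5 over Cy3 (x axis) for 40 of the member probes well above background in both channels on all arrays, 1 row per probe and grouped by family. Points are the mean of 2 arrays per clone with the standard error of the fit, red for clone #3-1 and blue for clone #4-7. OASL, IFIT1 and IFI6 lie farthest to the left, and IRF7 and IRF2BP1 farthest to the right.

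The genes best known to answer double-stranded RNA did not move as a block. Of 11 such genes with 15 probes (9 members plus ISG15 and IRF9, whose array names fall outside the rule), 1 probe was higher and 5 lower in Cy5 in clone #3-1. In clone #4-7, 1 was higher and 4 were lower. The higher one was a probe of IRF7, and the lower ones were OASL, IFIT1, IFIT2, ISG15 and, in clone #3-1, MX1. The shares higher and lower were 6.67% and 33.3% in clone #3-1, beside 16.3% and 16.4% of all probes. In clone #4-7 they were 6.67% and 26.7%, beside 16.1% and 15%.

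OASL, an OAS-like protein without the enzyme activity that promotes RIG-I signalling, was the member lowest in clone #3-1. Its probe (chr12:119921040-119921099 on hg17) read -1.44 and -1.46 on the 2 arrays of clone #3-1, and -0.99 and -0.98 on those of clone #4-7. The means were -1.45 ± 0.03 (SE, n = 2, adjusted p = 1.1e-05 in limma) and -0.98 ± 0.03 (adjusted p = 2.29e-05). These are 2.73-fold and 1.98-fold lower in Cy5. All 4 arrays were low, the clones did not overlap, and their difference was -0.47 (adjusted p = 0.00066).

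The OAS enzymes themselves showed no called probe. OAS1 (1 probe) and OAS2 (2 probes) were not well above background on any array. OAS3 had 2 bright probes, with values of -0.10, -0.02, -0.05 and -0.07 for one (A_23_P47955) over the clone #3-1 and then the clone #4-7 arrays. The other (A_24_P335305) gave -0.18, -0.17, -0.04 and -0.06. OAS3, whose promoter holds a core, thus lay close to 0 on all arrays.

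IFIT1, the founding IFIT protein, read -0.88 and -0.83 in clone #3-1 and -0.95 and -0.85 in clone #4-7 (chr10:91153418-91153477 on hg17). The means were -0.86 ± 0.04 (adjusted p = 4.52e-05) and -0.90 ± 0.04 (adjusted p = 4.83e-05), or 1.81-fold and 1.87-fold lower in Cy5. The arrays of the clones overlapped, and the difference between them was 0.04 (adjusted p = 0.54). IFIT2 followed with -0.41 and -0.48 in clone #3-1 and -0.54 and -0.67 in clone #4-7 for the probe A_23_P24004. Its means were -0.44 ± 0.04 (adjusted p = 0.000583) and -0.60 ± 0.04 (adjusted p = 0.000215). The other IFIT2 probe was dim: in Cy5 it was not well above background on any array, and against Cy3 in clone #3-1 it was at least 1.13-fold lower (adjusted p = 0.046), not past the threshold, a bound set by the lowest signal well above background.

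IFIT3, the partner of IFIT1 in the same complex, passed the threshold in neither clone. It read -0.24 and -0.19 in clone #3-1 and -0.15 and 0.06 in clone #4-7, near the background. IFIT5, which binds RNA on its own, had 2 bright probes that disagreed. One (A_24_P30194) was higher in clone #3-1, at 0.41 ± 0.03 (adjusted p = 0.000333), and stood at 0.05 in clone #4-7. The other (A_23_P63668) stood at -0.01 in clone #3-1 and was higher in clone #4-7, at 0.21 ± 0.03 (adjusted p = 0.0027). So the 4 IFIT genes on the array had values on both sides of 0.

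ISG15, a ubiquitin-like protein that is conjugated to other proteins after interferon, read -0.78 and -0.69 in clone #3-1 and -0.49 and -0.49 in clone #4-7. Its means were -0.74 ± 0.03 (adjusted p = 5.1e-05) and -0.49 ± 0.03 (adjusted p = 0.000184), and all 4 arrays were low. MX1 was lower in clone #3-1, with -0.29 and -0.30 (mean -0.30 ± 0.03, adjusted p = 0.000989). In clone #4-7 it read -0.01 and 0.08, and the difference of the clones was -0.33 (adjusted p = 0.00358). MX2 was close to the background in all channels.

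**Figure D2:**
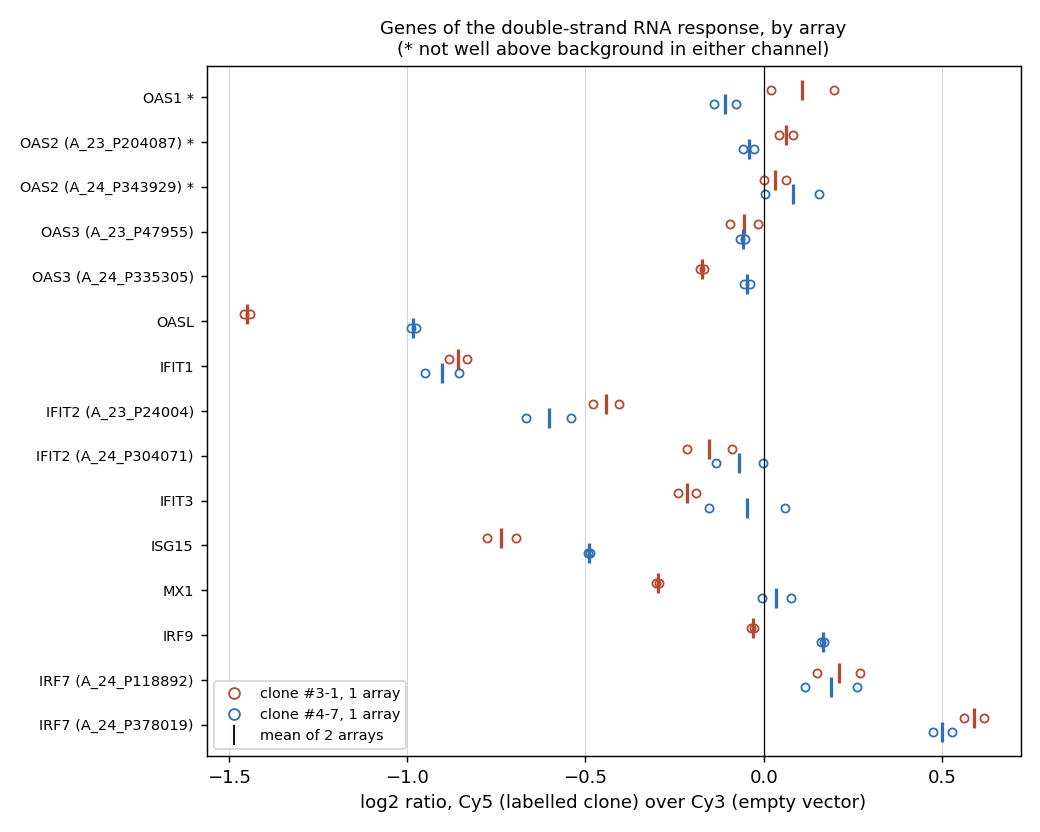
Log2 ratio of Cy5 over Cy3 (x axis) for the 15 probes of 11 genes of the double-strand RNA response, 1 row per probe. Open circles are single arrays and vertical marks the mean of 2 arrays, red for clone #3-1 and blue for clone #4-7. OASL, IFIT1, IFIT2 and ISG15 sit left of 0 on all 4 arrays in the probes that were measured everywhere, OAS3 near 0, and the OAS1 and OAS2 probes were not well above background.

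The other interferon-induced (IFI) genes differed from one to the next. IFI6, a small mitochondrial protein that opposes cell death, read -0.25 and -0.30 in clone #3-1 and -0.99 and -1.001 in clone #4-7 (chr1:27676979-27677038 on hg17). Its means were -0.28 ± 0.03 (adjusted p = 0.000828) and -0.996 ± 0.03 (adjusted p = 2.51e-05). All arrays were low and clone #4-7 was the lower, with a difference of 0.72 (adjusted p = 0.000222). IFI27, another small mitochondrial interferon-induced protein, was higher in clone #4-7 by both of its probes, at 0.43 (adjusted p = 0.000176) and 0.38 (adjusted p = 0.00239). These 2 probes share a run of 22 of their 60 bases, so they are not independent readings. In clone #3-1 they stood at -0.01 and 0.15, neither past the threshold. IFI35 was lower in clone #3-1, at -0.39 ± 0.03 (adjusted p = 0.000309), and stood at -0.14 in clone #4-7. IFI30, a lysosomal thiol reductase of antigen processing and one of the brightest member probes, stood at 0.14 and -0.12, and IFI44 at -0.17 and -0.16, without passing in either clone. IFI6 and IFI27, both with a core in the promoter, thus lay on opposite sides of 0 in clone #4-7.

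The IFITM proteins, which block viral entry at membranes, gave some of the brightest spots of the members. IFITM3 was lower in clone #3-1, at -0.26 ± 0.03 (adjusted p = 0.00103), and stood at -0.01 in clone #4-7. The pseudogene IFITM4P showed nearly the same values, -0.25 (adjusted p = 0.00297) and 0.02. IFITM1 stood at 0.10 in clone #3-1 and was lower in clone #4-7, at -0.30 ± 0.03 (adjusted p = 0.00113). IFITM2 (-0.07 and 0.08) and IFITM5 (0.05 and 0.02) passed in neither clone. The probes of IFITM2 and IFITM3, near-identical genes, share a run of 17 of their 60 bases, so the assignment of signal between these is uncertain. The other pairs of IFITM probes share runs of 5 or 6 bases.

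Among the guanylate-binding proteins, GTPases that act against intracellular pathogens, 6 of 9 probes were not well above background on any array. The 2 probes of GBP3 were lower in clone #3-1, at -0.43 ± 0.04 (adjusted p = 0.000337) and -0.33 ± 0.04 (adjusted p = 0.00152). In clone #4-7 the brighter probe stood at 0.15, not past the threshold, and it differed between the clones by -0.58 (adjusted p = 0.000713). The dimmer probe (A_23_P51487) was not well above background in Cy3 on either array of clone #4-7, where it was at least 1.16-fold higher in Cy5 (adjusted p = 0.0053), not past the threshold. Its fitted difference between the clones, -0.57 (adjusted p = 0.00117), therefore rests on a channel with only a bound. The brighter GBP4 probe stood at 0.02 and -0.22.

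The 7 IRF genes reported here, with 11 probes, ranged from -0.17 to 0.59 in clone #3-1 and from -0.30 to 0.50 in clone #4-7. In clone #3-1, 1 probe was higher and none lower in limma (2 were lower at an unadjusted p under 0.05), and in clone #4-7, 3 were higher and 1 lower. The shares higher and lower were 9.09% and 0% in clone #3-1, beside 16.3% and 16.4% of all probes. In clone #4-7 they were 27.3% and 9.09%, beside 16.1% and 15%. The brighter probe of IRF7 (chr11:602643-602702 on hg17), the factor that amplifies the interferon response, read 0.61 and 0.56 in clone #3-1 and 0.47 and 0.53 in clone #4-7. Its means were 0.59 ± 0.03 (adjusted p = 8.99e-05) and 0.50 ± 0.03 (adjusted p = 0.000163), or 1.5-fold and 1.41-fold higher in Cy5. The dimmer IRF7 probe stood at 0.21 and 0.19 and did not pass. So IRF7 was on the other side of 0 from OASL, IFIT1 and ISG15 on all 4 arrays.

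IRF5 was higher in clone #4-7 by both probes, at 0.43 (adjusted p = 0.000258) and 0.34 (adjusted p = 0.000974), and stood at -0.06 and -0.17 in clone #3-1. IRF3, the factor that acts first after RNA sensing, was lower in clone #4-7, at -0.30 ± 0.03 (adjusted p = 0.000811), and stood at -0.14 in clone #3-1. IRF1 and IRF2 passed in neither clone. IRF9, outside the name rule, stood at -0.03 and 0.16 and passed in neither.

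The rule also took in IRF2BP1 and IRF2BP2, which are binding partners of IRF2 and not IRF proteins. IRF2BP1 was higher in clone #3-1, at 0.59 ± 0.03 (adjusted p = 9.3e-05), and stood at -0.16 in clone #4-7, a difference of 0.75 (adjusted p = 0.000262). One of the 3 probes of IRF2BP2 (A_24_P154214) was lower in both clones, at -0.25 (adjusted p = 0.00172) and -0.27 (adjusted p = 0.00149).

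The 6 STAT genes reported here, with 12 probes, ranged from -0.61 to 0.06 in clone #3-1 and from -0.25 to 0.31 in clone #4-7. None was higher and 4 were lower in clone #3-1 in limma (at an unadjusted p under 0.05 none was higher either), and 1 was higher and 2 lower in clone #4-7. The shares higher and lower were 0% and 33.3% in clone #3-1, beside 16.3% and 16.4% of all probes. In clone #4-7 they were 8.33% and 16.7%, beside 16.1% and 15%. STAT2, which joins IRF9 on the response element, stood at -0.10 and -0.02 and passed in neither.

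STAT4, used by interleukin signals in lymphocytes, was lower in clone #3-1, at -0.61 ± 0.03 (adjusted p = 7.65e-05) for the probe A_23_P68031. That probe stood at 0.12 in clone #4-7, a difference of -0.73 (adjusted p = 0.000257). STAT6, which answers interleukin 4, was lower in both, at -0.33 ± 0.03 (adjusted p = 0.000381) and -0.25 ± 0.03 (adjusted p = 0.000999). The probes of STAT3, the transducer of interleukin 6 signals, disagreed in clone #4-7. One (A_23_P107206) was lower in clone #3-1, at -0.20 (adjusted p = 0.00262), and higher in clone #4-7, at 0.31 (adjusted p = 0.000593). Another (A_23_P100795) was lower in both, at -0.43 (adjusted p = 0.00019) and -0.22 (adjusted p = 0.0021). STAT5B stood at -0.26 and 0.17 by its brighter probe and passed in neither.

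Between the clones, 15 member probes differed, 5 higher and 10 lower in clone #3-1, where 11% and 11.6% of all probes were called. With a difference of at least 0.58 as well, they included STAT4 and GBP3 (lower in clone #3-1) and IFI6 and IRF2BP1 (higher in clone #3-1). Of the genes that answer double-stranded RNA, OASL and MX1 differed.

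**Figure D3:**
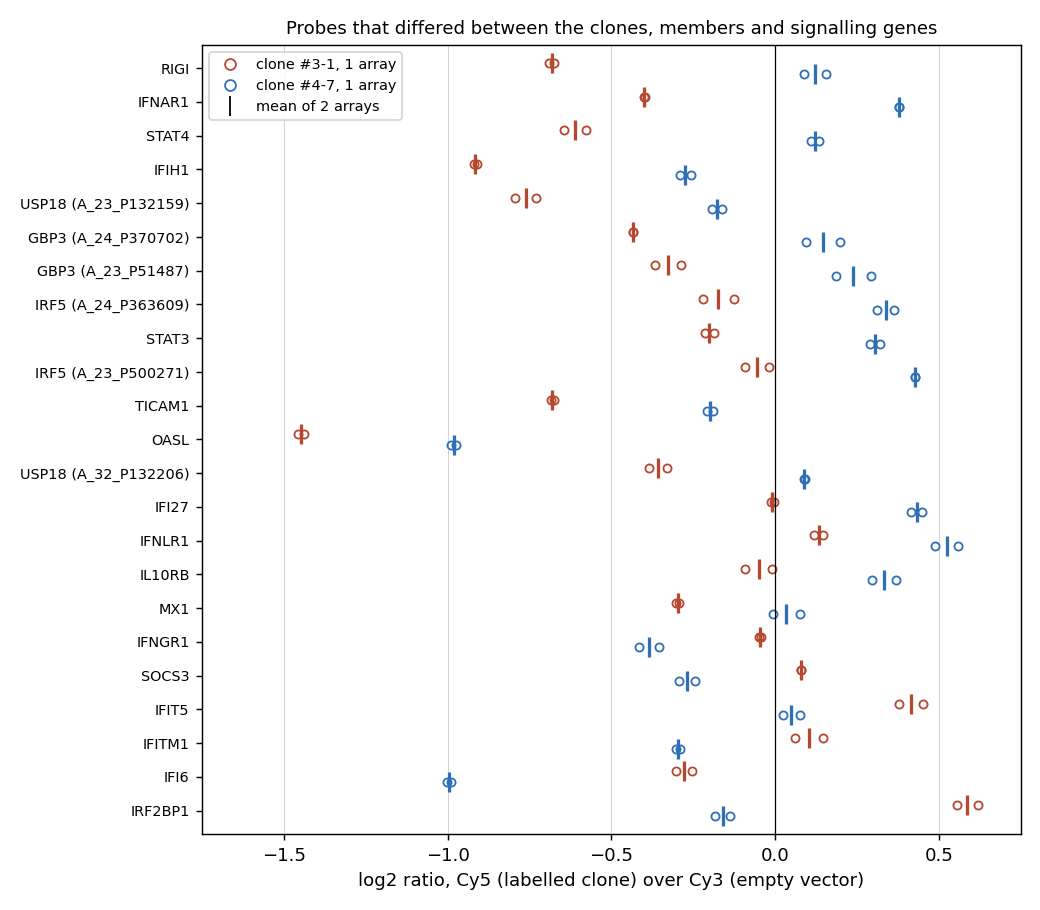
Log2 ratio of Cy5 over Cy3 (x axis) for 23 probes that differed between the clones at p under 0.001, among the members and the receptor, sensor and regulator lists, ordered by the difference. Open circles are single arrays and vertical marks the mean of 2 arrays, red for clone #3-1 and blue for clone #4-7. At the top the labelled clone #3-1 was the lower, with RIGI first, and at the bottom the higher, up to IRF2BP1.

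The genes before and around the members in the pathway were read from lists of ligands, receptors, sensors and regulators. Of 16 interferon genes with a probe, 12 probes were not well above background on any array and 1 passed the threshold in either clone. This was IFNE, the epithelial interferon epsilon, at 0.40 (adjusted p = 0.000487) in clone #3-1 and -0.14 in clone #4-7. Of 13 probes of receptors and Janus kinases, 1 was lower in clone #3-1, and 3 were higher and 1 lower in clone #4-7. These are 7.69% lower in clone #3-1 and 23.1% higher and 7.69% lower in clone #4-7, beside 16.4%, 16.1% and 15% of all probes. IFNAR1, a chain of the type I interferon receptor, was lower in clone #3-1, at -0.40 on both arrays (adjusted p = 0.000186). In clone #4-7 it was higher, at 0.38 on both (adjusted p = 0.000238), and the difference was -0.78 (adjusted p = 0.000154). IFNLR1, of the lambda receptor, was higher in clone #4-7 (0.52, adjusted p = 0.000138), and IFNGR1, of the gamma receptor, lower (-0.39, adjusted p = 0.000316). IFNE, IFNLR1 and IFNGR1 were named after their values were seen.

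Of 19 probes of RNA sensors and adaptors, 2 were higher and 5 lower in clone #3-1, and 3 higher and 2 lower in clone #4-7. The shares were 10.5% and 26.3% in clone #3-1, beside 16.3% and 16.4% of all probes, and 15.8% and 10.5% in clone #4-7, beside 16.1% and 15%. Several genes here were named after their values were seen. MDA5 (IFIH1) read -0.92 and -0.91 in clone #3-1 (adjusted p = 2.16e-05) and -0.29 and -0.26 in clone #4-7 (adjusted p = 0.000845). RIG-I (RIGI) read -0.67 and -0.69 in clone #3-1 (adjusted p = 5.8e-05) and 0.16 and 0.09 in clone #4-7. Both sensors, which are themselves interferon-induced, were lower in clone #3-1 than in clone #4-7, by -0.64 (adjusted p = 0.000275) and -0.80 (adjusted p = 0.000202). TLR3 was higher on all 4 arrays, at 0.83 and 0.80 in clone #3-1 (mean 0.82 ± 0.05, adjusted p = 9.08e-05) and 0.65 and 0.81 in clone #4-7 (mean 0.73 ± 0.05, adjusted p = 0.00014). TICAM1, the adaptor of TLR3, was lower in clone #3-1 by both probes, at -0.27 and -0.68 (adjusted p = 0.000782 and 4.1e-05). In clone #4-7 the first TICAM1 probe stood at -0.07, and the second was lower there too, at -0.20 (adjusted p = 0.00258). The kinase PKR (EIF2AK2), which stops translation on double-stranded RNA, stood at -0.04 and -0.14 and passed in neither.

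Among 23 probes of negative regulators, 4 were higher and 3 lower in clone #3-1 and 6 higher and 2 lower in clone #4-7. The shares in clone #3-1, 17.4% and 13%, were near those of all probes (16.3% and 16.4%), and those in clone #4-7 were 26.1% and 8.7%, beside 16.1% and 15%. USP18, which removes ISG15 from proteins and dampens the receptor, was lower in clone #3-1 by both probes, at -0.76 ± 0.03 (adjusted p = 4.33e-05) and -0.36 ± 0.03 (adjusted p = 0.000372). In clone #4-7 they stood at -0.18 and 0.09, neither past the threshold. USP18 was named after its values were seen, and this list held more called probes higher than lower in both clones.

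A further list of 45 interferon-stimulated genes outside the name rule, with 85 probes, also went both ways. Clone #3-1 had 17 probes higher and 20 lower (20% and 23.5%), and clone #4-7 had 15 higher and 12 lower (17.6% and 14.1%). Of all probes, 16.3% and 16.4% were higher and lower in clone #3-1, and 16.1% and 15% in clone #4-7. The list's median was -0.03 in clone #3-1 and 0.01 in clone #4-7. Past the threshold and at least 0.58 in both clones were 3 genes of this list. BATF2, a transcription factor induced by interferon gamma, was lower, at -1.04 ± 0.04 (adjusted p = 4.48e-05) and -0.82 ± 0.04 (adjusted p = 9.6e-05). WARS1, a tRNA synthetase induced by interferon gamma, was higher, at 0.84 ± 0.03 (adjusted p = 3.88e-05) and 0.74 ± 0.03 (adjusted p = 6.4e-05). SECTM1, by its probe A_24_P48204, was higher, at 1.15 ± 0.03 (adjusted p = 2.12e-05) and 0.79 ± 0.03 (adjusted p = 6.28e-05), while its probe A_24_P335656 stood at 0.49 and -0.15.

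Past the threshold in opposite directions in the clones were HERC6 (-0.27 and 0.24), SP100 by the probe A_23_P209712 (0.50 and -0.40) and TRIM5 by the probe A_23_P356526 (-0.37 and 0.23). The probes of SP100 disagreed: the brightest (A_23_P349928) was higher in both clones, at 0.75 (adjusted p = 3.56e-05) and 0.26 (adjusted p = 0.00107), and another (A_24_P385611) stood at -0.27 and 0.27. Further values were chosen after they were seen. ISG20, an RNA exonuclease, was lower in both, at -1.14 (adjusted p = 1.97e-05) and -0.40 (adjusted p = 0.000401). BST2 (tetherin), which holds budding virus at the cell surface, was also lower in both, at -0.45 (adjusted p = 0.000765) and -1.21 (adjusted p = 4.33e-05). PSMB9, a subunit of the immunoproteasome, was lower in clone #3-1 (-0.74, adjusted p = 4.2e-05) and stood at -0.01 in clone #4-7. TAP1, the peptide transporter encoded beside it, was higher in clone #4-7 (0.46, adjusted p = 0.000136) and stood at -0.04 in clone #3-1. CD274 (PD-L1) was higher in clone #4-7 (0.57, adjusted p = 0.000327).

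**Figure D4:**
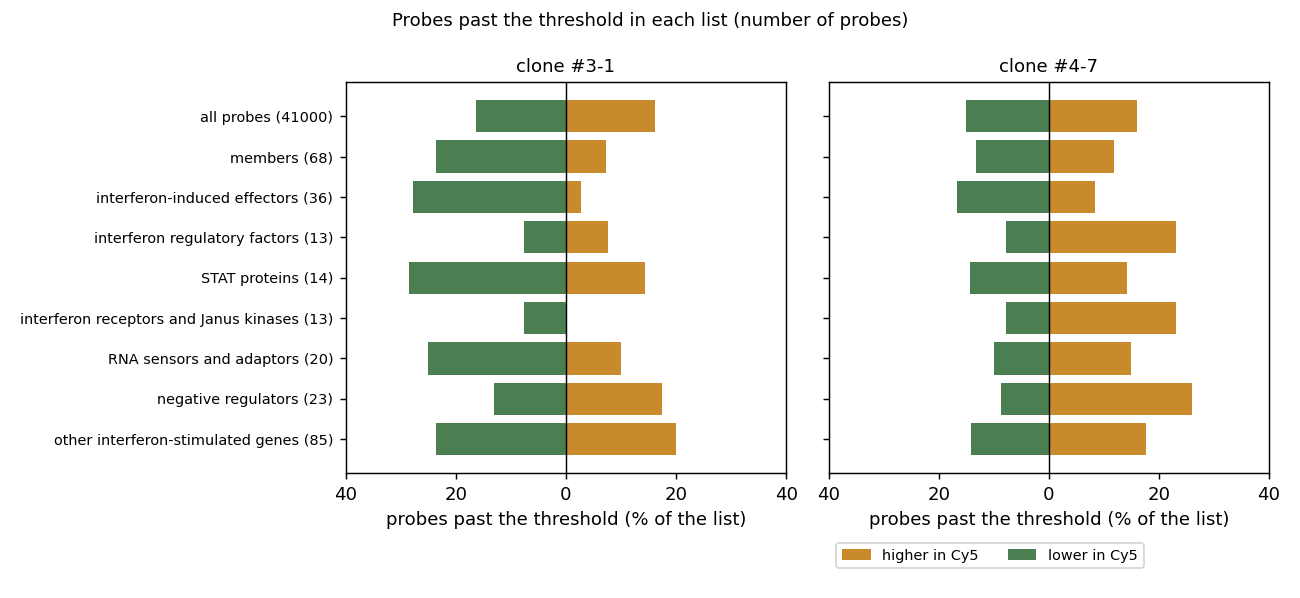
Share of probes past the threshold (x axis, percent of each list) in clone #3-1 (left panel) and clone #4-7 (right panel), with probes lower in Cy5 drawn to the left of 0 and probes higher in Cy5 to the right. The number of probes of each list is in brackets. In clone #3-1, 23.5% of the members were lower and 7.35% higher, beside 16.4% and 16.3% of all probes.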

How the data were processed

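The authors scanned 4 two-colour arrays and deposited Agilent Feature Extraction files (version 9.5.3.1 per the file headers, 8.5.1.1 per the submitters' notes) with the mean and background intensity of each spot, and probe positions on hg17. The deposited value table holds log10 ratios, which matched the scanner files' Cy5 over Cy3 to within 0.005. From the intensities, log2 ratios were computed with limma 3.58.1 in R 4.3.3: normexp background correction (offset 50), loess within arrays, quantile normalization between arrays and averaging of the spots of a probe. Between 87 and 125 spots per array flagged as outliers were left out. Such scaling sets the bulk of genes to 0, so a shift of most genes would not be seen. Linear models with 1 mean per clone were fitted to all 41000 probes of the 4 arrays, with Benjamini-Hochberg adjustment over all of them. Only the model fit was tested on simulated data, with log2 ratios of known change.

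The members and all gene lists were chosen with earlier results of these data known. A probe counted as well above background on an array where a share over 0.5 of its unflagged spots did. Array gene names were updated through RefSeq where an accession matched (23434 probes). The text names all genes of the double-strand RNA response, member probes past the threshold with a log2 ratio of at least 0.58 in a clone or in the difference, list genes that passed in both clones with at least 0.58 in the same direction or that passed in opposite directions, and further members by family; genes named otherwise are marked as chosen later. Some members and list genes are not reported here, though counts over all 68 member probes include them. Alternatives covered background correction, normalization, filter, threshold, the value table, 1 probe per gene, the replicate number as a block and each array left out.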

Additional observations from a re-analysis of the deposited data

Results flagged for a closer look

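The results flagged are differences between the 2 clones in the same contrast with the empty vector, each at p under 0.001 for the difference itself in limma. All are log2 differences, clone #3-1 minus clone #4-7, on 2 arrays per clone. The clones share 1 empty-vector control. Since 11% and 11.6% of all probes differed in each direction, such a difference is common on these arrays, and its cause was not tested.

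Among the members, the difference was below 0 for STAT4 (-0.73), both GBP3 probes (-0.58 and -0.57, the latter not well above background in Cy3 in clone #4-7), both IRF5 probes (-0.51 and -0.48), STAT3 by the probe A_23_P107206 (-0.51), OASL (-0.47), IFI27 by the probe A_23_P48513 (-0.44) and MX1 (-0.33). It was above 0 for IRF2BP1 (0.75), IFI6 (0.72), IFITM1 (0.40) and IFIT5 by the probe A_24_P30194 (0.37).

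Among the sensors, receptors and regulators, it was below 0 for RIGI (-0.80), IFNAR1 (-0.78), IFIH1 (-0.64), both USP18 probes (-0.58 and -0.45), TICAM1 by the probe A_23_P90311 (-0.48) and IFNLR1 (-0.39). It was above 0 for IFNE (0.54) and IFNGR1 (0.34). Among the other interferon-stimulated genes, it was below 0 for ISG20 (-0.73), PSMB9 (-0.72), TRIM5 by the probe A_23_P356526 (-0.60), HERC6 (-0.52) and TAP1 (-0.50), and above 0 for SP100 by the probe A_23_P209712 (0.90), BST2 (0.76) and SECTM1 (0.36).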

How the results depend on the processing

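Of 103 log2 ratios of named probes past the threshold, taken over both clones and their difference, none turned direction under 15 alternatives. Of their 1545 values under these, 1238 stayed past the threshold and 307 did not. Under the filter, the intensity trend, the adjusted p and the block the ratios themselves are unchanged, so no direction could turn there. The adjusted p under 0.05 also had to keep all 103, as no called probe exceeded 0.0044. An array left out of 1 clone leaves the other clone's ratios unchanged. Counts of member probes past the threshold moved more, and the cause was not tested except where fewer arrays or another threshold is the alternative itself. Against 5 higher and 16 lower in clone #3-1, 8 higher and 9 lower in clone #4-7 and 15 that differed, plain background subtraction gave 3, 5, 5, 3 and 6. Normexp with an offset of 0 gave 8 lower in clone #3-1, 5 higher and 4 lower in clone #4-7 and 8 that differed. The processed signals of Feature Extraction gave 10 lower in clone #3-1, 5 lower in clone #4-7 and 9 that differed, and the authors' table of log10 ratios gave 10 lower in clone #3-1, 5 higher and 4 lower in clone #4-7 and 8 that differed. Letting the prior variance follow the intensity gave 15 lower in clone #4-7 and 28 that differed. A Benjamini-Hochberg adjusted p under 0.05 gave 9 higher and 26 lower in clone #3-1, 17 higher and 18 lower in clone #4-7 and 30 that differed. How many of all probes were called under each alternative was not counted. These member counts, and those under the alternatives below, therefore cannot be set against the whole array. With 1 probe per gene, 5 were higher in clone #4-7, but out of 45 probes and not 68. The counts with at least 0.58 as well (2, 4, 0 and 4) moved by a factor of 1.5 at most under these alternatives. The last could not stay at 4 under plain background subtraction, where only 3 were lower in clone #4-7. Counts not listed for an alternative in this paragraph also moved by a factor of 1.5 at most.

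The members' median of -0.06 in clone #3-1 became -0.126 (plain subtraction), -0.144 (processed signals), -0.14 (authors' table) and -0.128 (only probes well above background in a channel on all arrays). The median of 0.00 in clone #4-7 became -0.008 (offset 0), -0.026 (processed signals), -0.006 (authors' table), 0.012 (only probes well above background), -0.014 (no normalization between arrays, and Aquantile) and -0.021 (1 probe per gene).

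With 1 array left out, the lone array of a clone is assumed to vary like the others. The counts then were 4 higher and 6 to 12 lower in clone #3-1, 4 to 6 higher and 4 to 8 lower in clone #4-7, and 7 to 13 that differed. Leaving out replicate 1 or replicate 2 of clone #3-1 gave 6 lower in that clone. Leaving out replicate 1 or replicate 2 of clone #4-7 gave 4 higher and 4 lower in that clone, and without its replicate 1, 7 differed. With at least 0.58 as well, they ranged from 1 to 2 higher and 3 to 4 lower in clone #3-1 and from 3 to 4 lower in clone #4-7, and 1 was higher in clone #3-1 with either of its arrays left out. The medians ranged from -0.092 to -0.037 and from -0.006 to 0.001.

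The replicate numbers are shared by the clones, but same-numbered arrays did not deviate together (r = -0.013 over probes), so they were not taken as pairs. With the replicate number as a block, 5 were higher and 13 lower in clone #3-1, 6 higher and 8 lower in clone #4-7, and 16 differed. The number of arrays limits the precision, and the 18 member probes not well above background on any array limit what can be seen of OAS1, OAS2 and most GBP genes.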
